A study of Mus musculus with 4 samples.

Results

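Lysosome and autophagy genes were compared between heart muscle cells of control mice and of mice that overexpress RBFOX2, a protein that binds RNA and steers alternative splicing. The group holds 35 genes chosen by name, 23 lysosomal and 12 of autophagy, out of 48316 gene names in the authors' table. Each of the 35 names matched 1 row, had an estimate in both groups and passed the filter on low values described next, so none was lost.

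Polyadenylated RNA was sequenced from cardiomyocytes that Langendorff perfusion, a flow of enzyme through the coronary vessels, had released from mouse hearts. The 4 libraries formed the groups: 2 from control mice labelled with the genotype MHC, and 2 from mice labelled RbFox2 (Rbfox2 OE here), which by the title of the series overexpress the non-muscle RBFOX2 isoform. All mice were of the strain C57BL x FVB and had eaten a doxycycline diet for 3 days, the controls included. The labels do not spell out the transgenes or the promoter that drives them, and age and sex are not given in the sources used here. For each gene the table gives 1 pooled FPKM value per group (fragments per kilobase of transcript, scaled to sequencing depth, so that levels of different genes can be compared), with a lower and an upper bound, which stand in brackets after the value below. The level of these bounds is not stated. There is no value per library, so the spread between libraries is unknown and no test between the groups was possible. A difference is called here where the bounds of the groups do not overlap ("separate bounds") or where the log2 ratio of Rbfox2 OE over control, computed after adding 1 FPKM to both values, is at least 1 in size ("2-fold"). The comparison covered the 11697 genes whose mean over the groups reached 1 FPKM, and the median log2 ratio over them was -0.06. The overexpressed gene checks the labels: Rbfox2 stood at 14.7 FPKM in control cells and at 293 FPKM in Rbfox2 OE cells. The depth of the libraries is unknown.

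Lysosomes are acidic compartments in which hydrolases break down proteins, lipids, glycogen and other sugars that arrive by endocytosis or by autophagy. In autophagy a membrane grows around cytoplasm or a damaged organelle, is decorated with proteins of the LC3 and GABARAP family, closes, and fuses with a lysosome. Heart muscle cells divide rarely and rely on both for the turnover of mitochondria and of sarcomere proteins, and inherited loss of LAMP2 or of the lysosomal enzyme GAA causes cardiomyopathy. Many lysosomal and autophagy genes are targets of TFEB, a transcription factor that binds promoter sites built around the letters CACGTG.

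This core was searched for in the RefSeq promoter windows (GRCm38.p6, 250 bases before to 50 bases after each transcription start), on both strands, which for a palindrome are the same letters. A window was found for 29 of the 35 genes. CACGTG lay in the windows of 7 of 20 lysosomal genes (35%) and of 2 of 9 autophagy genes (22.2%), against 12.1% of the 8750 compared genes that have a window and 8.09% of all 27025 genes with one. The longer palindrome TCACGTGA, which contains CACGTG, lay in windows of 3 of 20 lysosomal genes (15%) and of 0 of 9 autophagy genes, against 2.30% of compared genes. GTCACGTG, which also contains the core and overlaps TCACGTGA in part, lay in 5 of 20 and 1 of 9, against 4.97%. The stretches that follow are those with several cores or with the longer palindrome. They are given on the strand of the gene, 5′ to 3′, with each CACGTG in capitals.
Lamp1: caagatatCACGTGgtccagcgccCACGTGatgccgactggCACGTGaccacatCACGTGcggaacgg
Mcoln1: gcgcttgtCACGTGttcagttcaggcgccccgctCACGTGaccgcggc
Ctsa: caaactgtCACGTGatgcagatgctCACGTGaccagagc
Ctsd: ccgcgtctCACGTGacccgttg
The Lamp1 stretch (chr8:13159092-13159159, plus strand) holds 4 cores within 68 bases, the first beginning 61 bases and the last 15 bases before the start of transcription. In Mcoln1 (chr8:3500440-3500487, plus strand) the cores begin 71 and 45 bases before the start. Ctsa (chr2:164833753-164833791, plus strand) carries the longer palindrome at 2 places, around the start that this window was built on. Ctsd (chr7:142387912-142387933, minus strand) carries it 98 bases before the start, with another core further upstream. Ctsl, Gaa, Lgmn, Atg5 and Atg7 each hold 1 core. The Atg7 window, from position 114670846 of chromosome 6, lies inside the annotated gene, which begins at 114643097 on the plus strand. The windows with cores of Ctsa, Ctsl and Lgmn lie inside their annotated genes too. That of Ctsa begins at 164833523, and the gene at 164832873. On the minus strand, the Ctsl window ends at 64370770 and the gene at 64370890, and the Lgmn window at 102439342 and the gene at 102439813. Ctsa and Lgmn have 2 windows each. A match is a description of letters and not a site.

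The log2 ratios of the 9 genes with a CACGTG core ranged from -0.96 to 1.13 with a median of -0.15, and 1 of them, Ctsl, differed 2-fold. In the 20 genes with a window and no core they ranged from -1.55 to 2.54 with a median of 0.10, and 5 differed 2-fold. Among all genes compared, the share that differed 2-fold was 17%. The difference between genes with and without a core was not tested. Tfeb itself stood at 16.1 FPKM in control cells (11.0 to 21.2) and at 10.5 FPKM in Rbfox2 OE cells (7.06 to 13.99). The bounds of Tfeb overlap, and its log2 ratio was -0.57.

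Of the 23 lysosomal genes, 3 were at least 2-fold higher in Rbfox2 OE cells, all of them cathepsins, and 2 were at least 2-fold lower, Npc1 and Psap. Over all genes compared, 17% differed 2-fold, 6.97% being higher and 10% lower. The same 5 genes had separate bounds, again 3 higher and 2 lower, where 6.67% of all genes were higher by this criterion and 9.33% lower. The median log2 ratio of the 23 genes was -0.03, near the median of all genes, and 18 genes passed neither criterion. Their summed level was 2192 FPKM in control cells and 2261 FPKM in Rbfox2 OE cells. Nearly equal sums thus held genes that differed in opposite directions.

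**Figure D1:**
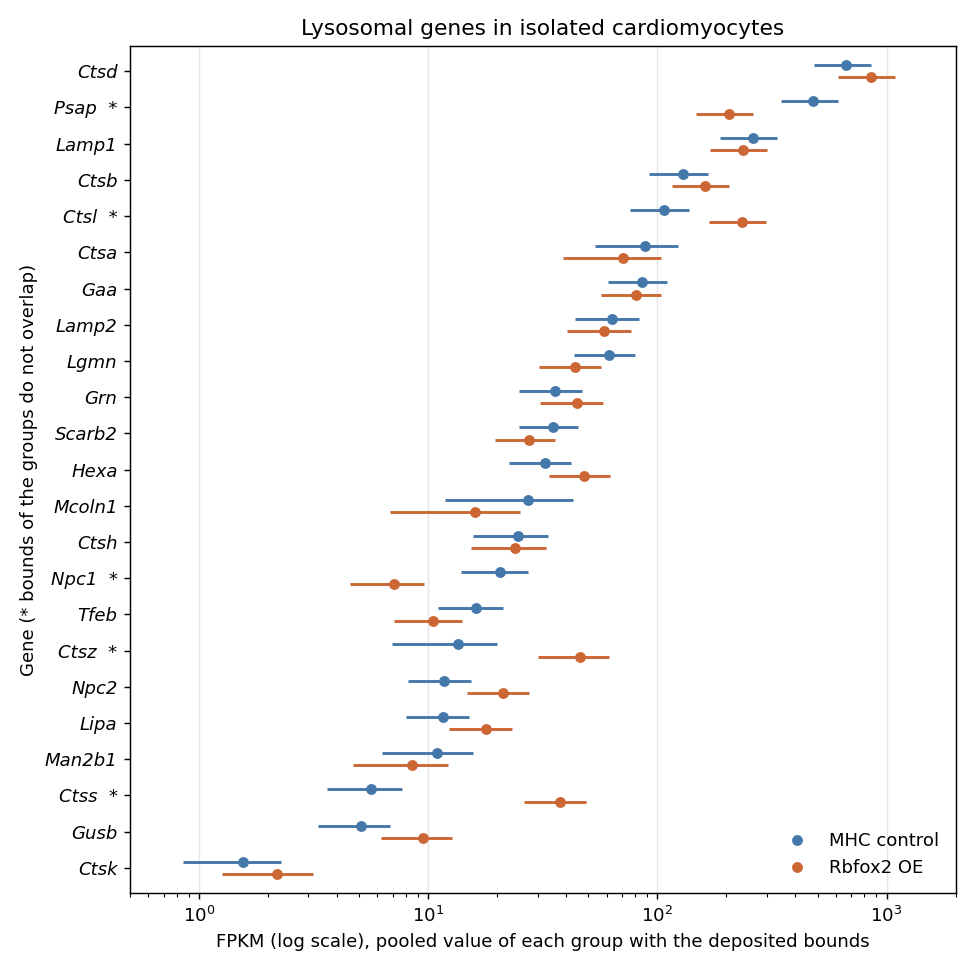
Level of the 23 lysosomal genes, ordered by the control; points are the pooled FPKM values of each group on a log axis, lines are the authors' bounds, and an asterisk marks separate bounds. Ctss, Ctsz and Ctsl lie to the right in Rbfox2 OE cells and Psap and Npc1 to the left, while the lines of the other 18 genes overlap.

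The cathepsins are the proteases of the lysosome, and most of the higher values were among them. Ctss, a cysteine protease known for its part in antigen presentation, stood at 5.63 FPKM in control cells (3.60 to 7.66) and at 37.6 FPKM in Rbfox2 OE cells (26.2 to 49.0). This 6.67-fold difference was the largest among the 35 genes, with a log2 ratio of 2.54 at percentile 99.5 of all genes compared. Pairing the nearest and the farthest bounds gave log2 ratios of 1.65 and 3.44. Ctsz, a carboxypeptidase, stood at 13.5 FPKM (6.94 to 20.0) in control cells and 45.8 FPKM (30.1 to 61.5) in Rbfox2 OE cells, a 3.40-fold difference. Ctsl, a broadly expressed endopeptidase, stood at 106 FPKM (75.8 to 137) and 233 FPKM (168 to 299), a 2.19-fold difference with a log2 ratio of 1.13. The groups did not overlap in any of these 3 genes, and all 3 were also higher when the values were rescaled.

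The other 5 cathepsins had overlapping bounds. Ctsd, the aspartic protease of the lysosome, was the most abundant of the 23 genes in both groups, at 667 FPKM (482 to 853) and 853 FPKM (614 to 1093). It ranked 106th of all genes compared in control cells and 62nd in Rbfox2 OE cells. Ctsb stood at 129 FPKM in control cells and 161 FPKM in Rbfox2 OE cells, and the low-expressed Ctsk, best known from bone-resorbing cells, at 1.56 FPKM and 2.19 FPKM. Ctsh was nearly level at 24.6 FPKM and 24.0 FPKM. Ctsa, a serine carboxypeptidase that also shields other lysosomal enzymes from breakdown, stood at 87.9 FPKM and 71.1 FPKM.

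Taken as a sum per length, the 8 cathepsins amounted to 1036 FPKM in control cells and 1428 FPKM in Rbfox2 OE cells. Ctsd made up 64.4% of the control sum and 59.8% of the Rbfox2 OE sum. The share of Ctsl was 10.3% in control cells and 16.3% in Rbfox2 OE cells, that of Ctss 0.543% and 2.63%, and that of Ctsz 1.30% and 3.20%. Ctsl accounted for more of the added FPKM than Ctss and Ctsz did, although its fold difference was the smallest of these 3. Ctsd, at 667 and 853 FPKM with overlapping bounds, accounted for more of it than Ctsl did. Lgmn, the asparaginyl protease that cuts cathepsins into their mature chains, stood at 61.5 FPKM in control cells and 43.6 FPKM in Rbfox2 OE cells, with overlapping bounds.

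The preparations also held RNA of other cell types, and their markers differed between the groups as well. In bulk RNA, more cells of a type and more RNA per cell cannot be told apart. Of 18 macrophage markers, 17 were compared and 15 had separate bounds, all higher in Rbfox2 OE cells, and none was listed at 0 in either group. Their summed level was 153 FPKM in control cells and 553 FPKM in Rbfox2 OE cells, a ratio of 3.61. The most abundant of them were Lyz2 at 41.3 and 170 FPKM, C1qa at 28.3 and 71.7 FPKM, C1qb at 22.1 and 69.2 FPKM, and C1qc at 16.9 and 45.3 FPKM. Of 9 fibroblast markers 6 were higher by separate bounds, with sums of 231 and 545 FPKM, and of 9 endothelial markers 3 were, with sums of 240 and 439 FPKM. Of 11 cardiomyocyte markers, Myh6 and Mb had too many fragments for an estimate and are listed at 0 in both groups. Of the other 9, 6 were lower by separate bounds and none was higher, or 4 and none after rescaling, when the bounds of Tnnc1 and Actn2 met. The most abundant were Myl2 at 24688 and 18007 FPKM and Tnnt2 at 10609 and 6917 FPKM, both with overlapping bounds, and Tnni3 at 7811 and 3866 FPKM and Actc1 at 6867 and 3013 FPKM, both lower by separate bounds. Pln and Ryr2, which control calcium uptake and release in heart muscle, were 5.35-fold and 5.43-fold lower. The ratios of Ctss and Ctsz were 6.67 and 3.40 beside 3.61 for the macrophage sum, and that of Ctsl was 2.19. Taken singly, the 17 compared macrophage markers had ratios of Rbfox2 OE over control from 1.91 to 8.69. The ratios of Ctss, Ctsz and Ctsl all lay within that range. The part of these cells in the cathepsin values was not tested.

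Among the genes of the lysosomal membrane, Npc1 was the 1 of 5 with separate bounds. Npc1, which passes cholesterol out of the lysosome (ENSMUSG00000024413, chromosome 18, 12189692 to 12236400 on the minus strand, a protein-coding gene), stood at 20.6 FPKM in control cells (13.9 to 27.3) and at 7.07 FPKM in Rbfox2 OE cells (4.57 to 9.56). It was 2.91-fold lower, with a log2 ratio of -1.42, and the bounds gave a range from -2.35 to -0.49. The annotated Npc1 gene overlaps 2 other genes on the opposite strand, so its value depends on how fragments were assigned. Its partner Npc2, the soluble protein that hands cholesterol to NPC1, lay on the other side: 11.7 FPKM in control cells (8.14 to 15.4) and 21.1 FPKM in Rbfox2 OE cells (14.8 to 27.5). The bounds of Npc2 overlap by a narrow margin, and they were separate once the groups were rescaled. Lipa, the acid lipase that frees the cholesterol which NPC2 and NPC1 then export, stood at 11.5 FPKM and 17.8 FPKM with overlapping bounds. Within this route of 3 genes, the last step was thus lower and the 2 earlier ones were higher in value without separate bounds.

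The structural membrane proteins were close to level. Lamp1, a main glycoprotein of the lysosomal membrane, stood at 260 FPKM in control cells (187 to 334) and 235 FPKM in Rbfox2 OE cells (170 to 301). Lamp2, which also serves fusion with autophagosomes, stood at 63.2 and 58.4 FPKM, and Scarb2, which carries glucocerebrosidase to the lysosome, at 34.9 and 27.6 FPKM. The log2 ratios of Lamp1 and Lamp2, -0.15 and -0.11, changed sign on rescaling. Mcoln1, a calcium channel of the lysosome that acts upstream of TFEB, stood at 27.3 FPKM (11.8 to 42.8) and 15.9 FPKM (6.84 to 25.1), with overlapping bounds and a log2 ratio of -0.74.

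Psap was the abundant lysosomal gene that was lower. It encodes the precursor of the saposins, small proteins that help enzymes reach sphingolipids, and it lies on chromosome 10 (ENSMUSG00000004207, 60277627 to 60302597, plus strand, protein-coding), where it overlaps no other annotated gene. Psap stood at 479 FPKM in control cells (347 to 612) and at 205 FPKM in Rbfox2 OE cells (148 to 262), 2.34-fold lower. Its log2 ratio of -1.22 ranged from -1.23 to -1.08 over the alternatives. In the order of all genes compared it moved from rank 148 to rank 351, while Ctsd, which led the group in control cells too, moved up.

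The remaining hydrolases and their helpers were split, and none had separate bounds. Hexa, which trims gangliosides, stood at 32.2 FPKM in control cells and 48.0 FPKM in Rbfox2 OE cells. Gusb, which cuts glucuronic acid from glycosaminoglycans, stood at 5.06 FPKM (3.30 to 6.83) and 9.46 FPKM (6.24 to 12.7), and its bounds, like those of Npc2, were separate after rescaling. Grn, the precursor of the granulins, stood at 35.8 and 44.4 FPKM. On the lower side were Man2b1, a mannosidase, at 11.0 and 8.45 FPKM, and Gaa, which releases glucose from glycogen, at 85.5 and 80.3 FPKM. The log2 ratio of Gaa, -0.09, changed sign on rescaling.

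Of the 12 autophagy genes, 0 were 2-fold higher and 2 were 2-fold lower in Rbfox2 OE cells, Ulk1 and Wipi1, and these were also the 2 with separate bounds. The median log2 ratio was -0.41, beside -0.06 for all genes compared. Of the 12 values 10 were below 0, beside 6289 of the 11697 genes compared, and 9 were below the median of all genes. After rescaling the median was -0.26, beside 0.06 for all genes. Then 8 of the 12 values were below 0, beside 5342 of the 11697. The summed level was 1675 FPKM in control cells and 1402 FPKM in Rbfox2 OE cells. The 2 genes are 16.7% of the 12, beside 10% of all genes that were 2-fold lower.

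**Figure D2:**
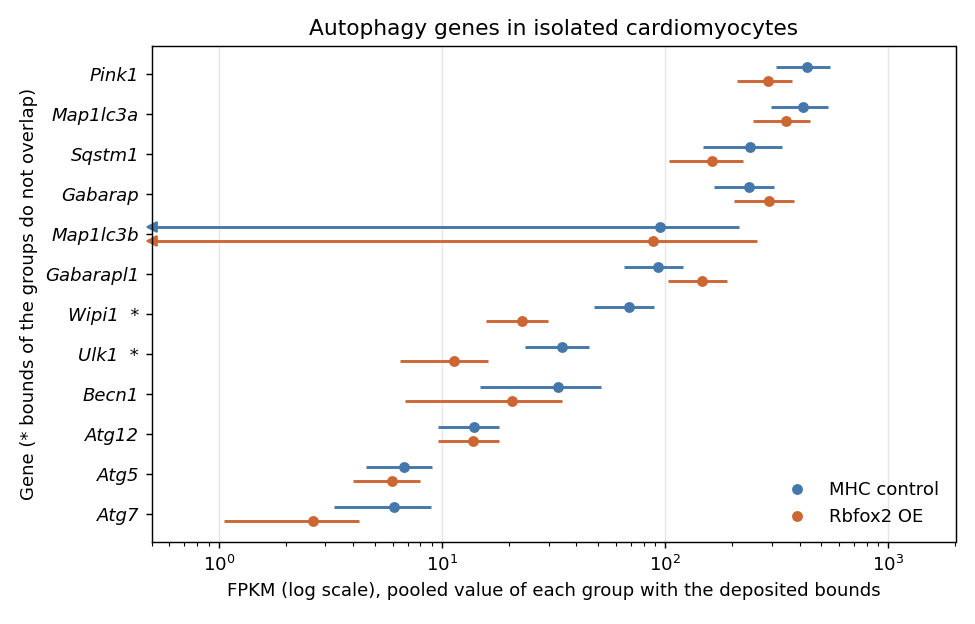
Level of the 12 autophagy genes, drawn as pooled FPKM values with the authors' bounds on a log axis and ordered by the control; arrowheads mark lower bounds of 0. Wipi1 and Ulk1 are the genes whose lines do not overlap, and the lines of Map1lc3b reach 0 in both groups.

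Both genes with separate bounds act at the first steps, where the autophagosome is started. Ulk1, the kinase that sets off autophagy when nutrients are low (ENSMUSG00000029512, chromosome 5, 110784488 to 110810097 on the minus strand, a protein-coding gene), stood at 34.5 FPKM in control cells (23.5 to 45.5) and at 11.3 FPKM in Rbfox2 OE cells (6.47 to 16.0). It was 3.06-fold lower, with a log2 ratio of -1.53 and a range from -2.64 to -0.52 by the bounds. Wipi1, which reads the lipid phosphatidylinositol 3-phosphate on the growing membrane (ENSMUSG00000041895, chromosome 11, 109573331 to 109611967 on the minus strand, a protein-coding gene), stood at 68.6 FPKM (48.2 to 89.0) and 22.7 FPKM (15.7 to 29.7). It was 3.02-fold lower, with a log2 ratio of -1.55. Neither gene overlaps another annotated gene, and both stayed past the 2-fold threshold under every alternative that kept that threshold. Becn1, a subunit of the kinase complex that makes this lipid, stood at 33.2 FPKM (14.8 to 51.6) and 20.6 FPKM (6.84 to 34.4), with bounds that overlap.

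The conjugation genes attach LC3 to membranes. Atg7, the enzyme that activates both ATG12 and LC3, stood at 6.08 FPKM in control cells (3.27 to 8.90) and 2.64 FPKM in Rbfox2 OE cells (1.05 to 4.23). Its log2 ratio of -0.96 fell just short of 2-fold and passed it, at -1.18, with 0.1 FPKM added in place of 1, and its bounds overlap. Atg12 was level, at 13.8 FPKM in both groups with bounds of 9.58 to 18.1 in each, and its partner Atg5 stood at 6.76 and 5.98 FPKM.

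The LC3 and GABARAP genes, whose proteins coat the autophagosome and hold its cargo, were among the most abundant of the group and none was called. Map1lc3a stood at 416 FPKM in control cells (298 to 535) and 348 FPKM in Rbfox2 OE cells (248 to 447). Gabarap stood at 237 and 291 FPKM, and Gabarapl1 at 92.4 FPKM (65.3 to 120) and 146 FPKM (103 to 188). Map1lc3b stood at 94.5 and 88.4 FPKM with lower bounds of 0 in both groups, and the table places it in a locus shared with 188 other genes, so its value is uncertain. Summed per length, the 4 genes gave 840 FPKM in control cells and 872 FPKM in Rbfox2 OE cells. Map1lc3a made up 49.6% of that sum in control cells and 39.9% in Rbfox2 OE cells, and the share of Gabarapl1 was 11.0% and 16.7%.

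The cargo receptor and the mitophagy kinase had nearly the same log2 ratio. Sqstm1, whose protein p62 links ubiquitin-tagged cargo to LC3, stood at 241 FPKM in control cells (148 to 333) and 163 FPKM in Rbfox2 OE cells (104 to 222). Pink1, the kinase that marks damaged mitochondria for removal, was the most abundant autophagy gene of the control, at 431 FPKM (313 to 550), and stood at 290 FPKM in Rbfox2 OE cells (210 to 370). The log2 ratios were -0.56 and -0.57, and the bounds of both genes overlap.

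**Figure D3:**
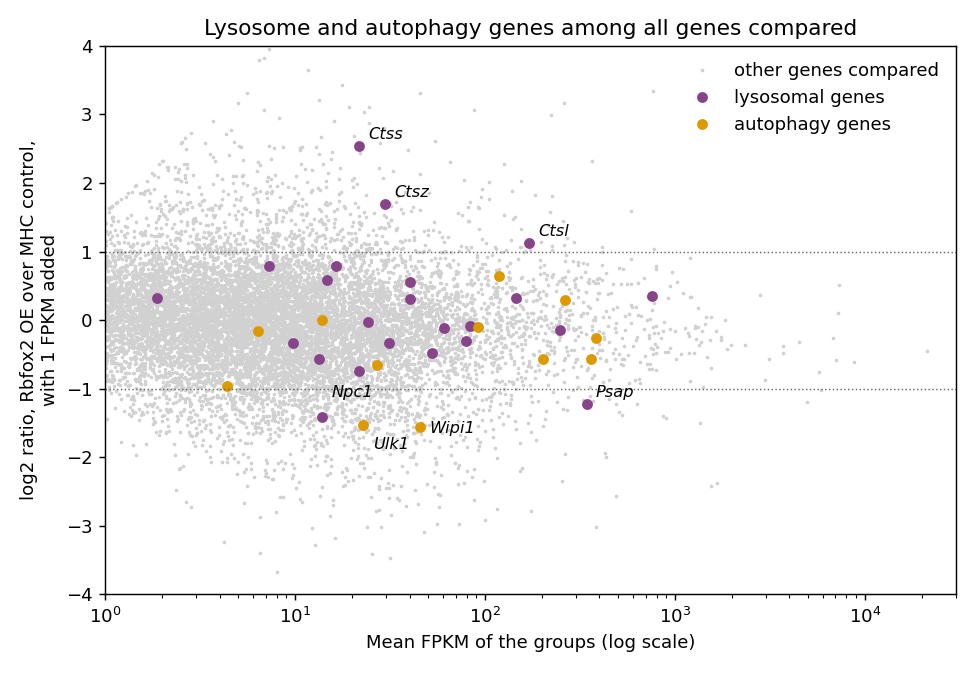
Log2 ratio of Rbfox2 OE over the control, with 1 FPKM added, against the mean FPKM of the groups on a log axis; each point is a gene, dotted lines mark a 2-fold difference, and 30 genes beyond 4 in size are not drawn. The 7 lysosome and autophagy genes named in the plot lie beyond the dotted lines, and the other 28 lie between them.

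The order of levels within a group was mostly not resolved, because the bounds of most neighbours overlap. Among the 22 pairs of neighbouring lysosomal genes in control cells, ordered by FPKM, 3 had separate bounds, and in Rbfox2 OE cells 3 did. Among the 11 pairs of autophagy genes, 2 had separate bounds in control cells and 0 in Rbfox2 OE cells. Pink1 led the autophagy genes in control cells and Map1lc3a in Rbfox2 OE cells, and Atg7 was lowest in both groups.

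The rest of the pathway was taken from lists of its other genes. Of 70 further lysosomal genes, 68 were compared, and 11 had separate bounds (16.2%, beside 16.0% of all genes), 2 of them higher and 9 lower in Rbfox2 OE cells. After rescaling the split was 3 higher and 5 lower. Their median log2 ratio was -0.22, or -0.09 after rescaling. Among hydrolases, Ctsc, which activates proteases of immune cells, was higher at 8.37 and 20.5 FPKM, and so was Acp5, an acid phosphatase known from osteoclasts and macrophages, at 0.494 and 2.60 FPKM. Glb1, the acid galactosidase, was lower at 7.24 and 3.04 FPKM, though its bounds met after rescaling. The 2 higher hydrolases, like Ctss, are genes known from macrophages, whose markers were higher as given above, and the part of those cells was not tested.

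Sorting receptors and the proton pump also held lower genes. Igf2r, the receptor that brings newly made hydrolases to the lysosome by their mannose 6-phosphate tag, stood at 34.7 FPKM in control cells (24.7 to 44.7) and 8.03 FPKM in Rbfox2 OE cells (5.39 to 10.7), a log2 ratio of -1.98. The other receptor for the same tag, M6pr, stood at 20.3 and 22.1 FPKM with overlapping bounds. Of 16 subunits of the V-ATPase, which acidifies the lysosome, 3 had separate bounds (18.8%, beside 16.0% of all genes), and all 3 were lower. These were Atp6v1c1 at 23.1 and 8.05 FPKM, Atp6v0a2 at 16.3 and 6.47 FPKM, and Atp6v1d at 106 and 51.3 FPKM. On the other side, Atp6v1h was 2-fold higher, at 9.50 and 22.6 FPKM, with overlapping bounds. The median of the 16 was -0.12, and 0.02 after rescaling.

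Of 51 further autophagy genes, 10 had separate bounds (19.6%), 1 of them higher and 9 lower, a split of 1 and 5 after rescaling. The median log2 ratio was -0.34, or -0.21 after rescaling. None of the 17 other initiation genes had separate bounds or a 2-fold difference, so Ulk1 and Wipi1 had no companion on that list: Ulk2 stood at 22.1 and 26.5 FPKM and Wipi2 at 11.3 and 15.0 FPKM. In the conjugation machinery Atg16l1, which brings the ATG12 and ATG5 conjugate to the membrane, was lower at 11.4 and 5.01 FPKM. Atg10, the enzyme that joins ATG12 to ATG5, stood at 13.9 and 5.72 FPKM, and Atg4d, a protease that trims LC3, at 20.5 and 8.18 FPKM, with bounds that met after rescaling.

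Among receptors and mitophagy genes, Bag3, a co-chaperone that clears damaged Z-disc proteins by autophagy, was the 1 gene higher, at 165 FPKM in control cells (119 to 212) and 353 FPKM in Rbfox2 OE cells (257 to 450). Optn, a mitophagy receptor, was lower at 57.1 and 23.5 FPKM. Park2, the ubiquitin ligase that PINK1 activates, stood at 5.16 and 1.64 FPKM, with bounds that met after rescaling. Among fusion genes, Rab7, the GTPase of late endosomes and lysosomes, stood at 188 FPKM (131 to 246) and 84.5 FPKM (57.7 to 111), and Vps39, a tethering subunit, at 10.1 and 3.43 FPKM. Park2, Rab7 and Igf2r each lie in a table locus shared with 6 other genes.

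**Figure D4:**
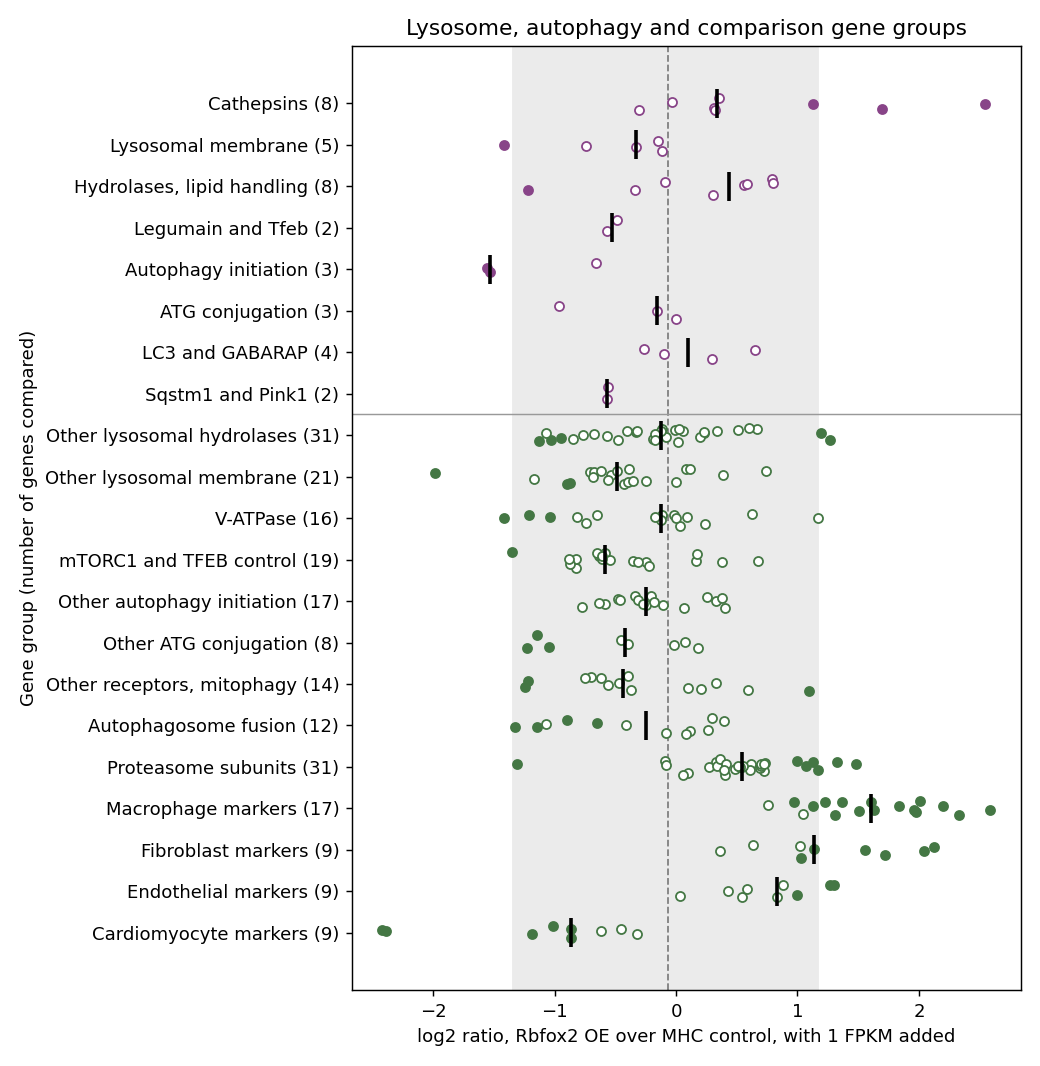
Log2 ratios of Rbfox2 OE over the control, with 1 FPKM added, for genes in each group; filled points have separate bounds, black bars are medians, the dashed line is the median of all genes compared (-0.06) and the grey band spans their 5th to 95th percentile. The 8 groups above the line are the 35 genes described here, and the medians of the macrophage, fibroblast, endothelial and proteasome lists lie to the right of the dashed line, while that of the cardiomyocyte markers lies to the left.

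The proteasome, the other main route of protein breakdown, was set beside these genes. Of its 31 constitutive subunits 6 were higher and 1 was lower by separate bounds, with a median log2 ratio of 0.55. Separate bounds were thus seen in 22.6% of the subunits, beside 16.0% of all genes compared, of which 6.67% were higher and 9.33% lower. Psmd7 stood at 73.4 and 206 FPKM, Psmd11 at 52.3 and 133 FPKM, and Psmd1, the 1 lower subunit, at 50.8 and 19.9 FPKM. Psmd1 lies in a table locus shared with 6 other genes. The medians of the lysosomal and the autophagy genes were -0.03 and -0.41. After rescaling the medians were 0.69 for the proteasome, 0.11 for the lysosomal genes, whose sign turned, and -0.26 for the autophagy genes. The difference between these lists and the proteasome was not tested.

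The authors' quantification splits fragments among overlapping genes. Of the 35 genes, 16 share a table locus with another gene, among them 3 of the 7 called ones, Ctss, Ctsz and Npc1. By annotated coordinates, which were looked up apart from the table locus, Ctss overlaps a pseudogene on the same strand and Ctsz overlaps Nelfcd on the opposite strand. Ctsl, Psap, Ulk1 and Wipi1 are alone in their table locus, though the annotated Ctsl gene overlaps 2 other genes, 1 of them on the opposite strand.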

How the data were processed

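The authors deposited FPKM values from Cuffdiff, per the file headers: 48432 gene rows with 1 pooled value, 2 bounds in FPKM and a status for each group of 2 libraries. Cuffdiff 2.2.1, STAR 2.4.2a, Trimmomatic, Picard 1.119, HTSeq and DESeq2, and the builds GRCm38 and mm10, are named with no role per the submitters' processing notes. The level of the bounds, the normalization mode and the annotation release are not given in the sources used here. The number of unused columns of per-sample values was 0.

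Rows sharing a name (110 names, none of the 35 genes) were summed. Log2 ratios were taken after adding 1 FPKM, so changes of low genes are understated, and the mean over the groups had to reach 1 FPKM. Limma, named in the design for values per library, could not be used, and no p-values were computed. Rescaling set equal the sums without mitochondrial genes and the 10 most abundant genes, which raised log2 values of Rbfox2 OE by 0.15. The median of all genes went from -0.06 to 0.06, and 1042 genes were then 2-fold higher and 926 lower in place of 815 and 1172. Coordinates come from GENCODE M21 on GRCm38, where all 35 names matched by identifier, and promoter windows from RefSeq.

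The 35 genes and all lists were chosen with earlier results of these data known. All 35 are named, with up to 4 genes of each further list that pass both criteria, largest first, and up to 4 of each marker list by level. Ulk2, Wipi2, M6pr, Atp6v1h, Ctsf, Pln, Ryr2, Tnnc1 and Actn2 were named after their values were seen. A comparison of LC3 and GABARAP protein sequences was not run. The calculations, in Python 3.11.15 with pandas 2.3.3, were tested on simulated data.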

Additional observations from a re-analysis of the deposited data

How the results depend on the processing

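No paired analysis was possible because libraries I and II of a group were pooled into 1 value, and for the same reason no library could be left out in turn. How far the libraries of a group differ is unknown and limits every result here, as does the unknown depth for genes near 0. The median of the lysosomal genes, -0.03, changed sign to 0.029 after centring on the median gene and to 0.11 after rescaling without mitochondrial and top genes, which also gave 5 lysosomal genes higher by separate bounds in place of 3 (Npc2 and Gusb were added). The median of the autophagy genes, -0.41, was -0.26 after that rescaling, and also with a mean of at least 5 FPKM, and for genes alone in their table locus. A 1.5-fold threshold gave 5 lysosomal genes higher, and 1 autophagy gene higher and 4 lower; a 4-fold threshold gave 1 lysosomal gene higher, 0 lower, and 0 autophagy genes lower. Restricted to genes alone in their table locus, an alternative chosen after seeing the data that leaves 19 of the 35, 1 lysosomal gene was higher (Ctsl) and 1 lower (Psap) by either criterion. The other 83 values of counts, medians and Rbfox2 stayed within 1.5 times or within the spread that the bounds give. Of the 35 single log2 ratios, 6 changed sign on rescaling (Ctsh, Lamp1, Lamp2, Gaa, Atg12 and Map1lc3b), none of them called, and the 7 called genes stayed past 2-fold under each pseudocount and scaling in which they were present, while Atg7 passed it, at -1.18, with a pseudocount of 0.1. Where no cause is named, the cause was not tested.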

Other observations

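The genes that set TFEB and autophagy by nutrient state were compared as a further list. Of 21 such genes 19 were compared, and Tsc2, which holds back the kinase complex mTORC1, was the 1 with separate bounds, at 23.7 FPKM in control cells (bounds 15.8 to 31.6) and 8.69 FPKM in Rbfox2 OE cells (bounds 4.69 to 12.7). Separate bounds were thus seen in 5.26% of the 19, beside 16.0% of all genes compared. The median log2 ratio of the 19 was -0.58, or -0.44 after rescaling, beside -0.06 and 0.06 for all genes. Below 0 lay 15 of 19 in both cases, beside 6289 of the 11697 genes compared, or 5342 after rescaling. Mtor, the kinase itself, stood at 10.01 and 5.21 FPKM, Rptor, its scaffold, at 11.3 and 5.70 FPKM, and Flcn, which controls the Rag GTPases, at 19.8 and 10.3 FPKM, each with overlapping bounds. Tfe3, a relative of TFEB, was on the other side at 5.97 and 10.2 FPKM, also with overlapping bounds. Mtor, Rptor, Flcn and Tfe3 were named after their values were seen.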
